A study of Mus musculus and synthetic construct with 33 samples.

Results

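Trp53cor1, also called linc-p21, is a long intergenic noncoding RNA gene of the mouse and the gene that the mutant strain of this study targets. It was found by its symbol in the tables of 4 embryonic organs, as 1 gene (ENSMUSG00000085912.1) of the 26754 listed in each table and 1 of the 1796 annotated as lincRNA. PolyA RNA was sequenced from whole heart, hindlimb, liver and lung at E14.5 (embryonic day), in embryos of genotype WT or KO of the strain Trp53cor1tm1.1Vlcg. All embryos, controls included, were on a mixed 129S6/C57BL/6 background described as N3 with no Neo. Heart, hindlimb and lung had 3 WT and 3 KO libraries each, and liver had 5 WT and 4 KO, which makes 27 libraries from 17 embryos of 7 litters. The sources used here do not give the extent of the targeted deletion. Each table gives 1 pooled value per genotype in FPKM (fragments per kilobase of transcript, scaled to library size), so no spread between embryos stands beside any organ value.

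Trp53cor1 is known as a target of the transcription factor p53, and lies beside Cdkn1a, the gene of p21, an inhibitor of the cell cycle and itself a p53 target. Its RNA has been described as a nuclear partner of the ribonucleoprotein Hnrnpk and as a regulator of Cdkn1a in cis. Long noncoding RNAs of this kind are spliced and polyadenylated like messenger RNAs, but most are present at far lower levels.

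The tables annotate a single transcript on the minus strand of chromosome 17 in build mm10, at chr17:29057474-29078961. Exon 1 (29078891 to 29078961) has 71 bases and exon 2 (29057474 to 29060358) has 2885, separated by an intron of 18532 bases. Exon 2 therefore makes up 97.6% of the 2956 bases of spliced RNA, and the FPKM value rests almost wholly on it. The RNA was longer than 84.4% of lincRNA-type genes, whose median exon length was 1304.5 bases. A structure of 2 exons was shared by 773 of the 1796 genes (43.0%, counting the transcript with the most exons). RefSeq (GRCm38.p6, the same assembly) places the start 165 bases further upstream, at 29079126, and lists another noncoding gene, Gm41556 (29056348 to 29059553), across 2080 bases of exon 2. Gm41556 has no row in the organ tables, and the library kit does not mark strand, so fragments of the 2 genes in that stretch cannot be told apart. No other gene of the organ tables overlaps Trp53cor1.

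The start of the gene and its splice sites are shown because they define the RNA that was counted. They were read from the overlapping reporter oligos of the same series, which are written on the minus strand, 5′ to 3′. The first sequence runs from the RefSeq start to 6 bases into the intron (chr17:29078885-29079126) with exon 1 of the tables in capitals. The other 2 show the ends of the intron, with its first and last 2 bases in capitals (chr17:29078885-29078900 and chr17:29060339-29060378).
Start region: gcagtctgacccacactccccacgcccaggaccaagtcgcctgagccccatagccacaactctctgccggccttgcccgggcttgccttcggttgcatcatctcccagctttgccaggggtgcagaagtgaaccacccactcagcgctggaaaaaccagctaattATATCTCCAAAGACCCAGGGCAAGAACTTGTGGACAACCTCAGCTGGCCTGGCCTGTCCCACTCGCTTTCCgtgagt
Donor: ctcgctttccGTgagt
Acceptor: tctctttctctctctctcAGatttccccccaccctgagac

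The annotated exon ends thus meet an intron that begins with GT and ends with AG, the usual pair. Within 250 bases upstream to 50 bases downstream of the start in the tables, a search for 2 p53 half-sites with intact cores, at most 13 bases apart and with at most 2 mismatches in all, found 1 match. It lay 78 bases upstream of that start (chr17:29079039-29079058) and had 1 mismatch and no spacer. The half-site reads the same on both strands, and 2.12% of 32851 RefSeq promoter windows of the same length held at least 1 such match. The window at the RefSeq start of Trp53cor1 held none by the same rule, because it ends upstream of the match. At the upstream RefSeq start of Cdkn1a the same search found 2 overlapping matches on the plus strand. The first (GRCm38.p6 chr17:29090906-29090937) had 0 mismatches and a spacer of 12 bases, and the second (GRCm38.p6 chr17:29090928-29090947) had 1 mismatch and no spacer. A match with 0 mismatches, held by 0.0731% of the promoter windows, was not found in either window of Trp53cor1. The downstream RefSeq start of Cdkn1a held no match. The 3 matches are printed with the half-sites in capitals to set the neighbouring genes side by side, and a match of letters does not show binding.
Trp53cor1 match: GGCCTTGCCCGGGCTTGCCT
Cdkn1a first match: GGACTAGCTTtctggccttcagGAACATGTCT
Cdkn1a second match: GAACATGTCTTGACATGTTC

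In wild-type embryos, Trp53cor1 RNA was found mainly in heart and hindlimb. It was 0.852 FPKM in WT heart, 0.710 in WT hindlimb, 0.104 in WT lung and 0.0351 in WT liver. Hindlimb thus had 83.3% of the heart value, lung 12.1% and liver 4.11%. The ratio was 8.23 for heart over lung, 24.3 for heart over liver and 1.20 for heart over hindlimb. The order of the 4 organs was the same after rescaling by median ratios over 10952 genes of at least 1 FPKM in every WT organ, with ratios of 9.80, 22.4 and 1.32. Adding 0.1 FPKM to every value, which damps ratios of low genes, gave 4.68, 7.05 and 1.18. With 1 value per organ and no spread, it is not known whether the neighbours in this order, such as heart and hindlimb, differ beyond the variation between embryos. The organ tables were scaled separately, the 3 WT hearts came from embryos whose livers are also in the WT liver pool, and WT heart and WT lung shared no embryo.

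**Figure D1:**
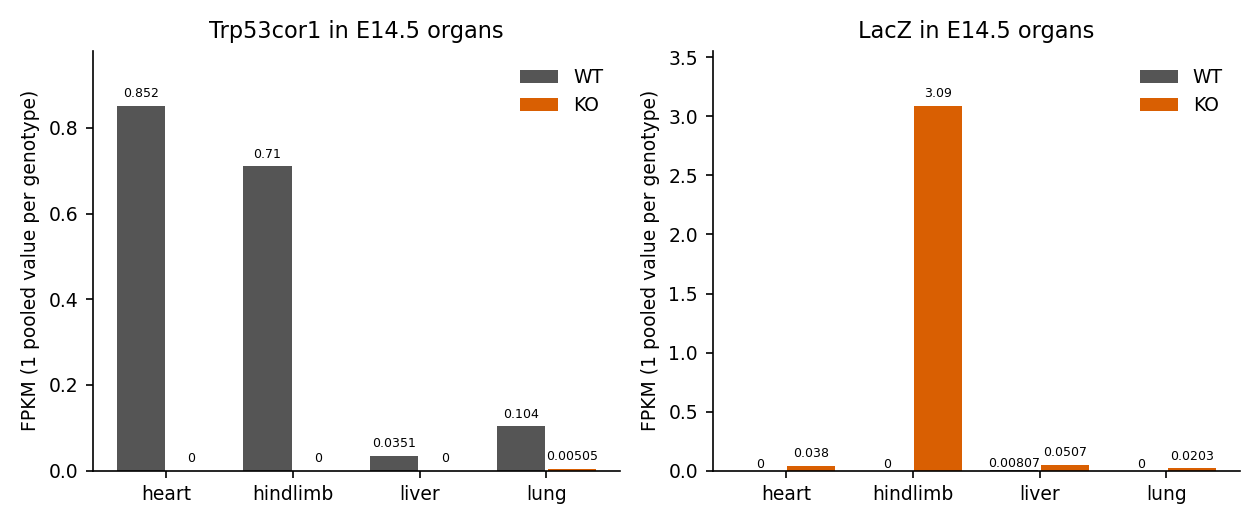
FPKM of Trp53cor1 (left) and of the reporter gene LacZ (right) in WT (grey) and KO (orange) organs, on linear axes; each bar is the authors' pooled value and has no error. Trp53cor1 is seen in WT heart and hindlimb, whereas LacZ stands out in KO hindlimb alone, at 3.09 FPKM.

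The abundance rank of Trp53cor1 among lincRNA-type genes split the organs in the same way. In WT heart it ranked 241 of the 1091 lincRNA-type genes above 0 FPKM, higher than 77.9% of them and 5.14 times their median of 0.166 FPKM. In WT hindlimb it ranked 274 of 1242, again above 77.9%, and 5.50 times the median. In WT lung it ranked 618 of 1012, above 38.9%, and in WT liver 701 of 1076, above 34.9%, which in both organs is below the median of the lincRNA-type genes above 0 FPKM. Counting also the genes listed at 0, it lay above 65.6% in lung and 61.0% in liver, and so above the median of all 1796. Protein-coding genes were far more abundant, and Trp53cor1 lay above 29.7% of those detected in WT heart, 26.3% in hindlimb, 12.7% in lung, and 11.3% for liver. Because the RNA is long, ranking by FPKM times exon length, which is closer to the number of fragments, moved it up to 81.7% in heart, 81.2% in hindlimb, 49.9% in lung and 45.4% in liver.

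**Figure D2:**
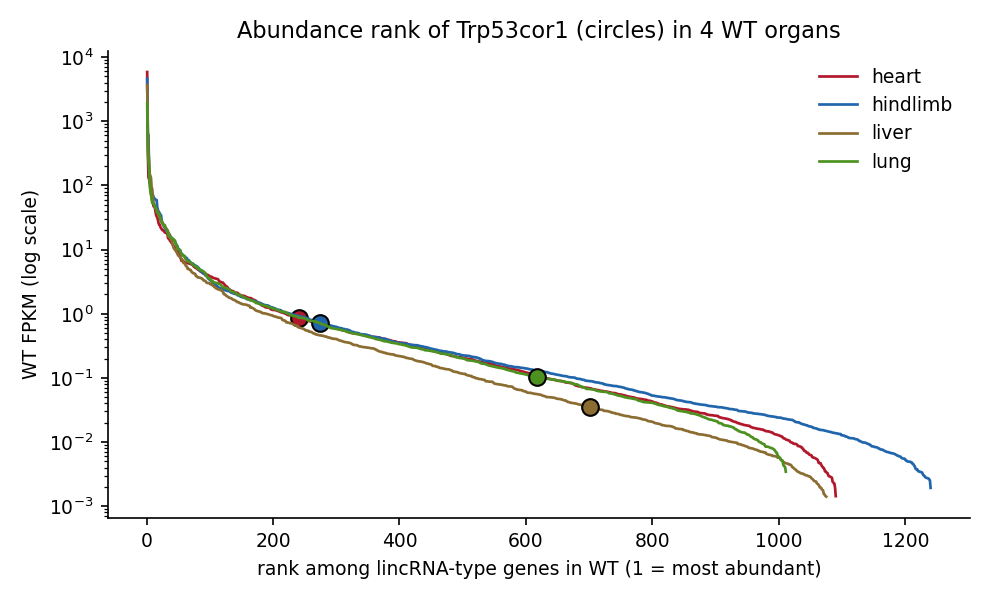
WT FPKM (log scale) of lincRNA-type genes of at least 0.001 FPKM against their rank within each organ, with Trp53cor1 as a circle. The circles for heart and hindlimb sit at ranks 241 and 274, and those for lung and liver at 618 and 701.

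The genes around these ranks give the scale of the values. H19, an imprinted noncoding RNA of fetal tissues, was the most abundant lincRNA-type gene in all 4 WT organs, at 5861 FPKM in heart and 1906 in lung. Gm26924 was among the 3 most abundant in every WT organ, Meg3, another imprinted RNA, in hindlimb, liver and lung, and Gm17275 in heart. The genes ranked just above and just below Trp53cor1 were Gm15328 (0.854 FPKM) and 9330104G04Rik (0.847) in WT heart and Gm9918 (0.738) and Gm26816 (0.702) in WT hindlimb. In WT liver they were 4930445N18Rik (0.0352) and 2810011L19Rik (0.0350), and in WT lung 5033428I22Rik (0.105) and 9330111N05Rik (0.103).

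Set beside well-known noncoding RNAs, Trp53cor1 was among the scarcer ones. Of 29 such genes listed for the purpose, 24 were found by symbol, and the number above Trp53cor1 was 17 in WT heart, 19 in WT hindlimb, 19 in WT liver and 20 in WT lung. Malat1, an abundant nuclear RNA, stood at 53.6 FPKM in WT heart, and Neat1, the scaffold of paraspeckles and a p53 target, at 4.29. Pvt1, another p53-responsive RNA, was 1.90 FPKM in WT heart and 4.26 in WT hindlimb. Fendrr, an RNA of lateral mesoderm, had another pattern, with 44.8 FPKM in WT lung and 0.0470 in WT heart. Hotair, transcribed from the HoxC cluster, was 1.66 FPKM in WT hindlimb but had a listed 0 in WT heart and WT lung.

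Few lincRNA-type genes had as large an excess of heart and hindlimb over liver and lung as Trp53cor1. The lower of the heart and hindlimb values of Trp53cor1 was 6.86 times the higher of its liver and lung values. Of 459 lincRNA-type genes reaching 0.5 FPKM in at least 1 WT organ, 1 other had a ratio as high, and of 15350 protein-coding genes 131 did (0.853%). The median ratio was 0.626 among those lincRNA-type genes. The grouping of the organs followed the WT values of Trp53cor1, which reached 0.5 FPKM in heart and hindlimb alone. Its place near the top was therefore largely set in advance, and the counts are a description only. The cutoff was the ratio of Trp53cor1 itself, so genes with the same pattern but a smaller ratio were not counted. One of these was 1700003M07Rik, with 0.458 FPKM in WT hindlimb and 0.0964 in WT lung. The other gene was Gm20468, named here after its values were seen, at 0.948 FPKM in WT heart, 0.0280 in hindlimb and listed at 0 in liver and lung, so its hindlimb level was close to nothing.

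By the distance between log2(FPKM + 0.1) values over the 4 WT organs, the nearest lincRNA-type gene was 1700003M07Rik. Its distance was 0.62, against a median of 4.31 over 1795 genes, and it had 0.744 FPKM in WT heart, 0.458 in hindlimb, 0.0964 in lung and 0.0132 in liver. The next were 4932441J04Rik (0.83), Gm14267 (0.996), 9330179D12Rik (1.01) and 4833422M21Rik (1.21), each on a chromosome other than 17. The nearest protein-coding genes were Pld5, a phospholipase D family member, at 0.32, Pnmt, the enzyme that makes adrenaline, at 0.45, and Stac2, a STAC adaptor gene, at 0.57. Likeness over 4 pooled values is a description. None of these 8 genes was called between KO and WT in the authors' deposited table in heart or hindlimb, where all 8 were tested. Of all tested genes 0.228% were called in heart and 0.623% in hindlimb, so the lack of calls among 8 genes says little about them.

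**Figure D3:**
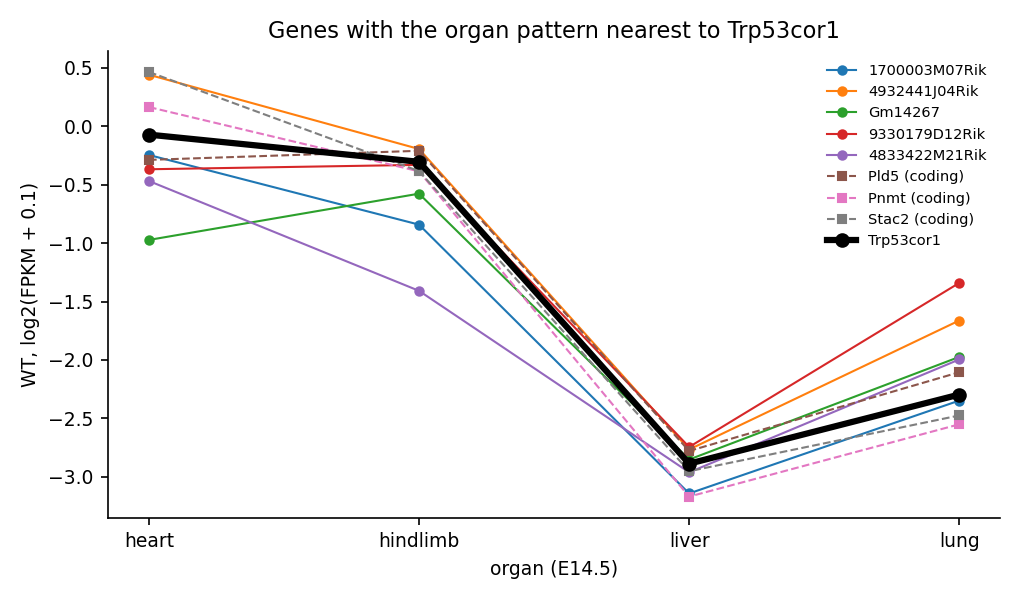
WT level, as log2(FPKM + 0.1), of Trp53cor1 (black) and of the 5 nearest lincRNA-type genes (solid lines) and 3 nearest protein-coding genes (dashed lines) in the 4 organs. All 9 lines drop from hindlimb to liver and rise from liver to lung.

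The comparison of KO with WT asks whether the targeted RNA was lost in each organ. Trp53cor1 was lost in heart and hindlimb. It went from 0.852 FPKM in WT heart to a listed 0 in KO heart (q = 0.0256 in the authors' deposited table), and from 0.710 FPKM in WT hindlimb to a listed 0 in KO hindlimb (q = 0.0123 in the authors' deposited table). A q-value under 0.05 was taken as a call, and no fold change is given against a value of 0. The share of all tested genes called lower in KO was 0.156% in heart and 0.351% in hindlimb. Both p-values were 5e-05, the smallest in the authors' deposited tables, which 30 genes shared in heart and 67 in hindlimb. After the stricter Benjamini-Yekutieli adjustment of the same deposited p-values neither organ passed, with adjusted values of 0.261 in heart and 0.127 in hindlimb. These are the lowest adjusted values that any gene of the 2 organs had, because no deposited p-value is smaller. No gene could pass there, so this adjustment cannot decide about Trp53cor1.

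In liver and lung the loss could not be tested. Liver went from 0.0351 FPKM in WT to a listed 0 in KO, and lung from 0.104 to 0.00505, and the authors' deposited table marks Trp53cor1 as not tested in both. To show how readily such a drop is seen at these levels, the other lincRNA-type genes within 2-fold of its WT value were examined. In liver 31 of 250 such genes (12.4%) were listed at 0 in KO, and in lung 26 of 257 (10.1%). In heart 0 of 200 and in hindlimb 0 of 213 such genes were listed at 0 in KO, and the lowest KO values were 0.116 FPKM in heart and 0.0736 in hindlimb. The KO values of Trp53cor1 thus lay outside the range of these genes in heart and hindlimb and inside it in liver and lung. At higher levels, Gm14133 went from 2.26 FPKM in WT heart to 0.00624 in KO heart but was not called (unadjusted p = 0.206 in the authors' deposited table), and it was named after its values were seen.

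**Figure D4:**
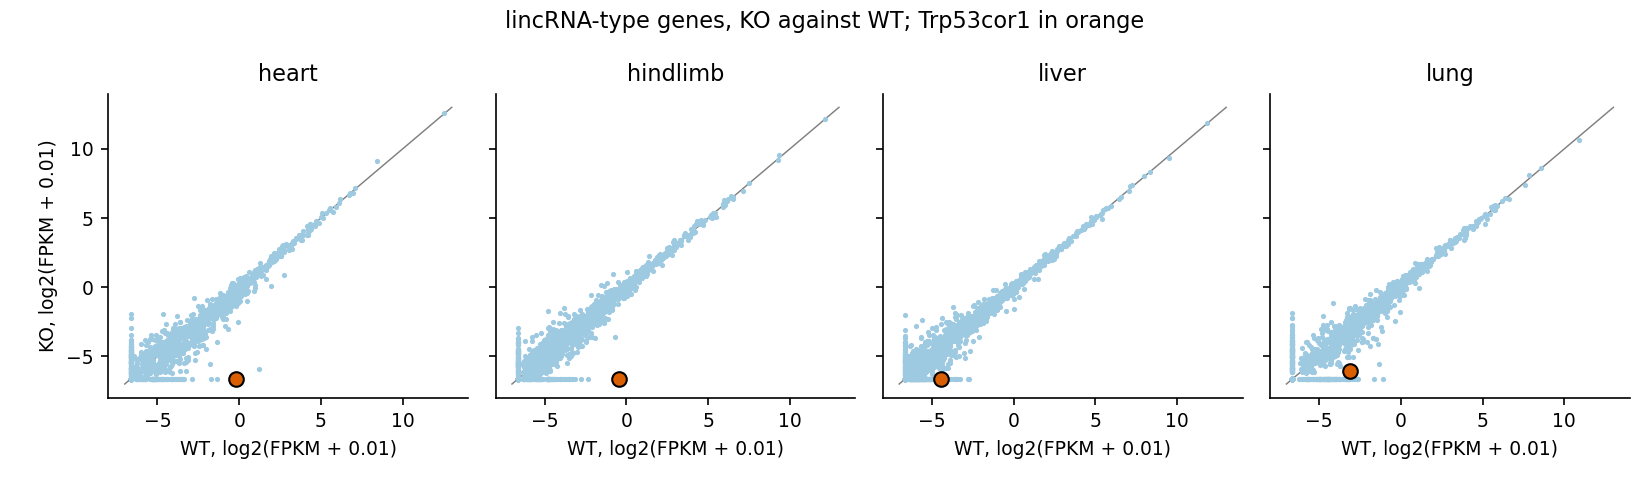
KO against WT level of each lincRNA-type gene, as log2(FPKM + 0.01), in the 4 organs, with the line of equal levels and Trp53cor1 in orange. In heart and hindlimb Trp53cor1 lies at the floor of the KO axis, below the other genes of like WT level, and in liver and lung it lies among genes listed at or near 0.

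Few other lincRNA-type genes were called. In heart Trp53cor1 was the single call among 457 tested lincRNA-type genes (0.219%, against 0.228% of all tested genes). In hindlimb it was 1 of 3 among 521 (0.576%, against 0.623%), beside 9430024E24Rik on chromosome 2, which rose to 1.97 FPKM in KO over 0.553 in WT (by 1.83 on the log2 scale with q = 0.0285, per the authors' deposited table). The third was Gm20546 on chromosome 17, which rose to 1.05 FPKM over 0.381 (by 1.46 on the log2 scale with q = 0.0123, per the authors' deposited table). The share of all tested genes called higher in KO hindlimb was 0.272%. The authors' test called 0 of 324 in liver (3 with an unadjusted p under 0.05) and 0 of 358 in lung (17 with an unadjusted p under 0.05), where 0.406% and 0.707% of all tested genes were called. Trp53cor1 was the single lincRNA-type gene called in more than 1 organ.

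The tables also list LacZ, with Velocigene as the source of its annotation, a bacterial reporter gene often placed in targeted alleles. Its level in KO organs did not run parallel to that of Trp53cor1 in WT organs. LacZ reached 3.09 FPKM in KO hindlimb against a listed 0 in WT hindlimb (q = 0.0123 in the authors' deposited table). It was 0.0380 FPKM in KO heart, 0.0507 in KO liver and 0.0203 in KO lung, where it was not tested. WT heart and lung were listed at 0, and WT liver at 0.00807 FPKM. LacZ in KO was therefore 4.35 times the Trp53cor1 level of WT in hindlimb but 0.0446 times in heart, although the WT levels of Trp53cor1 in these organs differed by 1.20-fold. Values per embryo were not used here, so it is not known whether the 3 KO hindlimbs shared this level.

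The summed level of each organ's marker list was highest in the organ of the label, although single genes could differ, as with the limb gene Tbx4 at 63.5 FPKM in WT lung and 19.3 in WT hindlimb. The summed level of 7 heart muscle genes was 18599 FPKM in WT heart and at most 551 elsewhere in WT, and that of 9 limb genes was 1299 in hindlimb and at most 121 elsewhere. Liver and erythroid genes (9) summed to 36249 FPKM in WT liver and at most 1690 elsewhere, and lung genes (6) to 855 in WT lung and at most 13.9 elsewhere. Each organ was whole, so fewer cells of a type and less RNA per cell cannot be told apart.

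Some of these markers differed by genotype beside Trp53cor1. In lung all 7 heart muscle genes had lower values in KO, 4 of them called (0.619% of all tested genes were called lower there), and their sum went from 551 FPKM in WT to 20.9 in KO. Myl7, the atrial myosin light chain, was 342 FPKM in WT lung, 19.9% of its WT heart level, and Myl2, the ventricular light chain, was 1.38 FPKM, 0.0136% of its WT heart level. The corresponding share for Trp53cor1, WT lung over WT heart, was 12.1%, and the other heart muscle genes had 10.5% (Myh6), 8.05% (Nppa), 2.75% (Nkx2-5), 2.47% (Tnnt2) and 0.102% (Myh7). Trp53cor1 was thus below Myl7 and above the other 6 in this share. Their part in the lung value of Trp53cor1 was not tested. In heart the liver genes Alb (5.98 to 1.63 FPKM) and Afp (10.3 to 1.71) were called lower in KO, 2 of 7 tested liver and erythroid markers. Of all genes tested in heart 0.156% were called lower. The sum of the 9 went from 840 to 758 FPKM, but the erythroid marker Hba-a1 made up most of it (820 to 753 FPKM, not called). In hindlimb 2 of 4 tested genes of the heart muscle list, Myh7 and Tnnt2, were called lower, against 0.351% of all tested genes. The sum of the 7 went from 113 to 75.6 FPKM. Tnnt2 (92.3 FPKM) and Myh7 (15.6) made up most of the WT hindlimb sum. The others lay between a listed 0 (Nppa) and 4.07 FPKM (Myl2) there, so this sum does not describe the list as a whole. In hindlimb 1 of 6 tested liver and erythroid markers was called higher, against 0.272% of all tested genes. This was Hba-a1 (190 to 314 FPKM). It made up most of the sum of the 9, which was 192 FPKM in WT and 316 in KO. The organs' own markers summed to 18599 FPKM in WT and 19254 in KO heart, with 0 calls. In hindlimb they summed to 1299 and 1056, with 1 call in each direction. Myl2 (10103 to 11408 FPKM) made up most of the heart sum, and Mylpf (642 to 439) with Acta1 (252 to 155) most of the hindlimb sum. The median log2 fold change was -0.135 over the heart list in heart and 0.318 over the limb list in hindlimb, opposite in direction to the sums. These sums therefore do not describe the lists as a whole. In lung Alb (3.85 to 1.56 FPKM) and Afp (4.00 to 1.42) were also called lower in KO. They were 2 of 6 tested liver and erythroid markers, against 0.619% of all tested genes. In liver Myh6, 1 of 5 tested genes of the heart muscle list, was called higher (0.104 to 0.779 FPKM). There 0.406% of all tested genes were called in either direction. The sum of the 7 went from 11.6 to 17.5 FPKM in liver. Myl2 (1.91 to 0.0393) and Myh7 (0.356 to 0.0960) were lower in KO liver, without a call. WT liver had 0.0351 FPKM of Trp53cor1, the lowest of the 4 organs. The part of the markers above in the Trp53cor1 values was not tested.

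Of the neighbours of Trp53cor1, 1 was called in every organ and 1 in none. Srsf3, which encodes a splicing factor and lies 14107 bases away, was not called in any organ, at 150 FPKM in WT and 167 in KO heart and 195 and 244 in hindlimb. Cdkn1a, 12017 bases away on the other side and on the plus strand, fell in all 4 organs. Its log2 fold change lay between -2.17 in hindlimb and -1.17 in lung in the authors' deposited table (q from 0.00845 to 0.0256), and 0.105% of genes tested in liver were called lower. In WT organs Cdkn1a was always the more abundant gene, with a level 24.1 times that of Trp53cor1 in heart, 50.2 times in hindlimb, 112 times in liver and 30.4 times in lung. Cdkn1a was highest in WT hindlimb (35.7 FPKM) and Trp53cor1 in WT heart, and liver was lowest for Trp53cor1 while lung was lowest for Cdkn1a (3.14 FPKM).

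Apart from Cdkn1a, no listed gene of the p53 pathway was called. Calls were rare among all tested genes, with shares from 0.228% (heart) to 0.707% (lung). The lack of other calls in lists this short therefore says little about the pathway. Of 10 regulators of p53, the authors' test covered 8 in heart, 10 in hindlimb, 8 in liver and 9 for lung, and called 0 in each organ. At an unadjusted p under 0.05 these counts were 0, 0, 0 and 2. Trp53, which encodes p53, was 41.5 FPKM in WT and 36.6 in KO heart, and 56.1 and 56.9 in hindlimb. Trp53 was most abundant in WT lung (84.9 FPKM), where Trp53cor1 was low, so the organ order of the 2 genes differed. Mdm2, the ligase that degrades p53 and a p53 target itself, was 27.2 and 27.1 FPKM in WT and KO heart. Of 32 p53 targets, Cdkn1a was the 1 called gene in each organ, and the list medians of the log2 fold change lay between -0.02 and 0.03, beside -0.01, 0.01, -0.00296 and -0.000754 over all tested genes of heart, hindlimb, liver and lung.

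None of the genes whose products have been linked to the RNA was called. All 10 were tested in each organ with 0 calls by the authors' test, and with 1 unadjusted p under 0.05 in heart and 0 in the others. Between 0.228% (heart) and 0.707% (lung) of all tested genes were called, so 0 calls among 10 genes say little about them. Hnrnpk had 453 FPKM in WT and 486 in KO heart, and 587 and 650 in hindlimb. Elavl1, which encodes the RNA-binding protein HuR, had 18.9 and 18.5 FPKM in WT and KO heart. Hif1a, the hypoxia factor, was 71.1 and 73.8 FPKM in WT and KO heart, and Ctnnb1, beta-catenin, was 348 and 354. Hnrnpk was thus far above Trp53cor1 in both organs.

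A reporter assay of the same locus gave a further readout of the start region, in C2C12 mouse myoblasts, a cell line and not an embryonic organ. Short tiles of the locus were linked to sequence tags in a reporter, and the share of tag reads was compared between 3 RNA and 3 vector libraries. The tile that holds the whole p53 match, at chr17:29078998-29079087, had shares of 0.328%, 0.371% and 0.281% in RNA and 0.0514%, 0.0516% and 0.0493% in vector. Its mean was 0.327% ± 0.0447 in RNA and 0.0508% ± 0.00132 in vector (SD, n = 3 each), a ratio of 6.43. The next tile towards exon 1, at chr17:29078949-29079038, ends just before the match, reaches into exon 1 and had 0.0902% ± 0.0187 in RNA and 0.0234% ± 0.000338 in vector (SD, n = 3 each), a ratio of 3.85. In both tiles every RNA value exceeded every vector value, as in 10.9% of 431 tiles found in all vector libraries. Over these tiles the median ratio was 0.785.

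Tiles on either side had lower ratios. Of the 2 tiles across the RefSeq start, the one nearer to exon 1, at chr17:29079047-29079136, holds part of the match and had 0.0208% ± 0.00253 in RNA and 0.0258% ± 0.000839 in vector (SD, n = 3 each), a ratio of 0.805. The other, at chr17:29079096-29079185, had a ratio of 1.83, from 0.0372% ± 0.00726 in RNA and 0.0204% ± 0.000689 in vector (SD, n = 3 each), and here too every RNA value was above every vector value. The next 2 tiles across exon 1 had ratios of 0.753 and 0.864. In these 2 tiles and the tile at chr17:29079047-29079136 every RNA value was below every vector value, as in 66.1% of the 431 tiles. These ratios were not tested here, and shares were not compared with the organ levels.

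**Figure D5:**
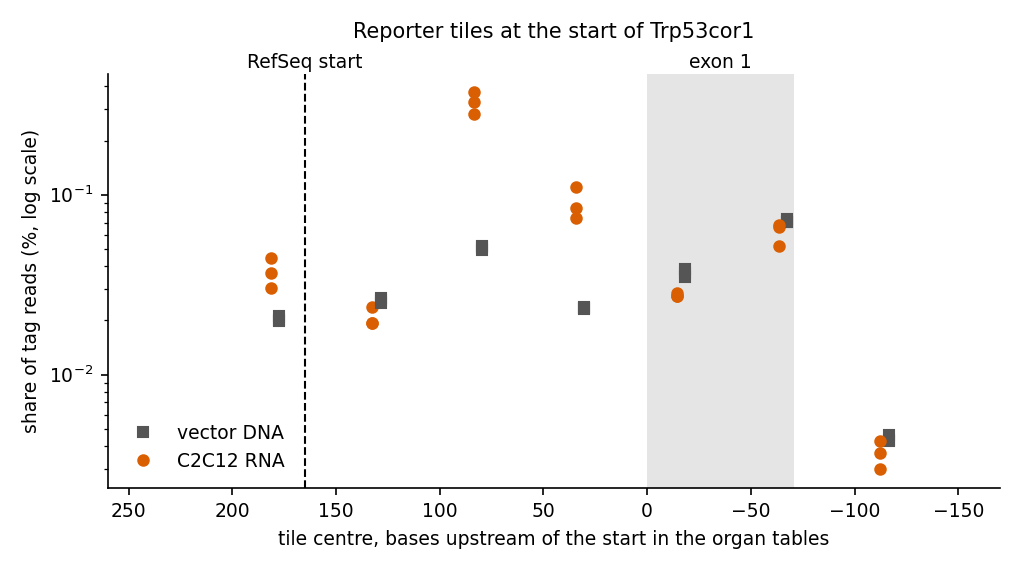
Share of tag reads (percent, log scale) of the reporter tiles around the start of Trp53cor1 in 3 C2C12 RNA (orange) and 3 vector DNA libraries (grey), by the distance of the tile centre from the start in the organ tables; grey shading is exon 1 and the dashed line the RefSeq start. RNA stands farthest above vector in the 2 tiles just upstream of the start in the tables, with ratios of 6.43 and 3.85.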

How the data were processed

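CASAVA 1.8.2, TopHat2 and mm10 are named in the submitters' processing notes. In the deposited organ tables each gene has 1 FPKM value per genotype, under a header that names genotype and unit only. It was taken as pooled over libraries. Beside it stand the authors' log2 fold change, test statistic (a score), p-value and q-value. The sources used here do not give the program behind them. Estimates close to 0 make some deposited fold changes very large, and values under 1e-06 FPKM were counted as 0 in KO. For the reporter, the deposited values are each tag's fraction of a library's reads, and the authors' median and ratio were not used. The 5 tags of a tile were summed, and shares are given in percent. Read depth is not stated, so no counting interval is given.

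Trp53cor1 was matched by symbol. Ranks, distances and ratios were computed with Python 3.11.15, pandas 2.3.3 and numpy 2.4.6, and adjustments were tested on simulated data. A call is the authors' q-value under 0.05, and no test was fitted, since organ values are pooled. Named genes were Trp53cor1, LacZ, Cdkn1a, the nearest genes, the 3 most abundant lincRNA-type genes and those beside it in rank, the 5 and 3 nearest in pattern, called lincRNA-type genes, and members of lists. Members and lists were chosen with earlier results of these data known. RefSeq windows cover 250 bases before to 50 after a start, and the table has no entry for Trp53cor1.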

Additional observations from a re-analysis of the deposited data

How the results depend on the processing

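No paired analysis was possible because the organ tables hold 1 pooled value per genotype. The reporter ratios were given as descriptions, and no test, paired or unpaired, was run on them. For want of values per library, litter as a block and leaving out organ libraries were not run. The deposited p-values stop at 5e-05. By Benjamini-Yekutieli adjustment Trp53cor1 did not pass (adjusted values of 0.261 in heart and 0.127 in hindlimb), nor did any lincRNA-type gene (0 in heart and 0 in hindlimb). With that smallest p-value no gene of either organ could pass, so this adjustment cannot decide about the calls. Both calls held without the other genes of chromosome 17 (adjusted values of 0.0331 and 0.0146). The share of genes below Trp53cor1 in WT depended on the genes counted. Over all listed lincRNA-type genes it was 86.6% in heart, 84.7% in hindlimb, 65.6% in lung and 61.0% in liver, and over those of at least 0.1 FPKM 61.7%, 59.6% and 1.28% in heart, hindlimb and lung (liver lay under that level). Over all gene types it was 35.6%, 33.1%, 15.6% and 13.8%, and by FPKM times exon length, added after seeing the data, 81.7%, 81.2%, 49.9% and 45.4%. With a pseudocount of 0.1 FPKM, ratios fell to 4.68 for heart over lung, 7.05 for heart over liver, 3.98 for hindlimb over lung, 6.00 for hindlimb over liver and 1.51 for lung over liver. Of the 5 nearest lincRNA-type genes, 2 were among the nearest by Pearson correlation and 3 with a pseudocount of 1. Leaving out single reporter libraries gave ratios of 6.00 to 6.88 and 3.40 to 4.18 for the 2 tiles above 3. Depth is unknown, so values near 0.1 FPKM and below have no stated precision.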
